A study of Mus musculus with 9 samples.

Results

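The synaptic vesicle release machinery was taken as 10 genes: Syp, Syn1, Syn2, Syt1, Vamp2, Snap25, Stx1a, Cplx1, Cplx2 and Bsn. Its members were all probe sets whose single annotated gene symbol is one of these, which gave 18 of the 22690 probe sets on the array and covered all 10 of the genes, out of 12393 gene symbols on it. On these arrays several short oligonucleotides together make a probe set, which gives 1 signal for the transcript they match. The arrays carried striatal RNA, left and right sides together, from 9 male C57BL/6J mice aged 56 days, with 1 array per mouse and 3 arrays in each group. One group had been injected with methamphetamine (METH), one with MPTP and one with saline (Control). METH drives dopamine out of nerve terminals and MPTP is turned into a toxin that dopamine neurons take up, and both drugs are used to model Parkinson's disease. The labels give no dose, injection schedule or interval before dissection. The design calls the arrays of a group biological replicates, and their number limits the precision of every value.

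Nerve terminals store transmitter in vesicles that fuse with the plasma membrane when calcium enters. Fusion is driven by the SNARE proteins: the vesicle protein VAMP2 zips together with syntaxin 1A and SNAP-25 of the plasma membrane, complexins clamp and promote the assembled complex, and synaptotagmin 1 senses calcium. Synaptophysin and the synapsins sit on the vesicle, and bassoon belongs to the scaffold of the active zone where vesicles dock. Transcripts of these genes lie mainly in cell bodies. Striatal RNA therefore reports on neurons whose cell bodies lie in the striatum, while the dopamine neurons that send their terminals there have their cell bodies in the midbrain. In bulk tissue, fewer cells of a type and less RNA per cell cannot be told apart.

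The tissue carried the markers of striatal spiny neurons on every array: the signal of Penk, the enkephalin precursor gene, was 47496 to 59113, and that of Drd2, the D2 dopamine receptor gene, was 14795 to 20549.9. Gfap, the astrocyte filament gene, was the gene past the test in both comparisons with Control. Its brighter probe set, 1426508_at, gave 13823, 10957 and 12077 on METH arrays 1 to 3 and 13596, 11350.3 and 12025 on MPTP arrays 1 to 3, against 5403, 5020.2 and 6436 on Control arrays 1 to 3. Any pair of arrays had a Spearman correlation of at least 0.970. The spread of signals on METH 2 was the narrowest of the 9, at 6.24 log2 units from the 10th to the 90th percentile, where the others had 6.39 to 6.67.

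No member passed the test in any comparison. Values were compared on the log2 scale with limma, all 9 arrays in 1 fit, and p-values were adjusted by Benjamini-Hochberg over 13576 probe sets, with 0.05 as the threshold. Probe sets whose mean log2 signal fell under the 40th percentile of the array, 9.54 or a signal of 742, were left out of the fit. Of the 18 member probe sets 17 were tested, covering all 10 genes, and the second Syp probe set was not. In METH against Control 0 of the 17 passed, with a background of 0.0147% of all probe sets tested, which were the 2 Gfap probe sets. In MPTP against Control 0 of 17 passed, with the same background of 0.0147%, and in METH against MPTP 0 of 17 passed, with a background of 0%. At an unadjusted p under 0.05 in limma, 3 members were lower and 1 was higher in METH against Control, where the backgrounds were 3% lower, 5.76% higher and 8.76% in all. In MPTP against Control 1 member was lower (background 1.82%) and 0 were higher (3.71%, and 5.52% in all). In METH against MPTP 1 was higher (1.74%) and 0 were lower (1.06%, and 2.8% in all).

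The tested members whose toxin and Control arrays did not overlap were the vesicle gene Syp, the SNARE gene Snap25 and the complexin gene Cplx2 after METH. After MPTP they were Syp and the synapsin gene Syn1. All of these were lower than saline, while the dim Syp probe set that was not tested was higher without overlap after both toxins. By unadjusted p the order differed. After METH, Bsn 1450467_at, which was higher than Control, came before Syp and Snap25, and Stx1a 1448366_at came before Snap25. After MPTP, Cplx2 and Snap25 came before Syp. All 3 toxin arrays lay below all 3 Control arrays for 3 of the 17 probe sets after METH (6.73% of all probe sets tested) and for 2 of 17 after MPTP (4.92%). No tested member had all 3 toxin arrays above Control, where the backgrounds were 6.96% and 6.2%. In either direction they were 13.7% and 11.1%. The counts of members without overlap moved when single arrays were left out, which also leaves fewer arrays to overlap. In METH against Control there were 7 lower and 2 higher members without Control 2, where 12.6% and 13.7% of all probe sets tested were lower and higher without overlap. Without METH 1 there were 3 lower and 4 higher (10.5% and 12.1%), and without METH 3 there were 5 lower and 0 higher (12.2% and 14.1%). For MPTP against Control there were 4 lower and 0 higher without Control 1 (9.92% and 11.7%) and 7 lower and 1 higher without Control 2 (9.75% and 12.7%). Without Control 3 there were 3 lower and 2 higher (10.3% and 11.5%), the higher ones both of Cplx1.

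**Figure D1:**
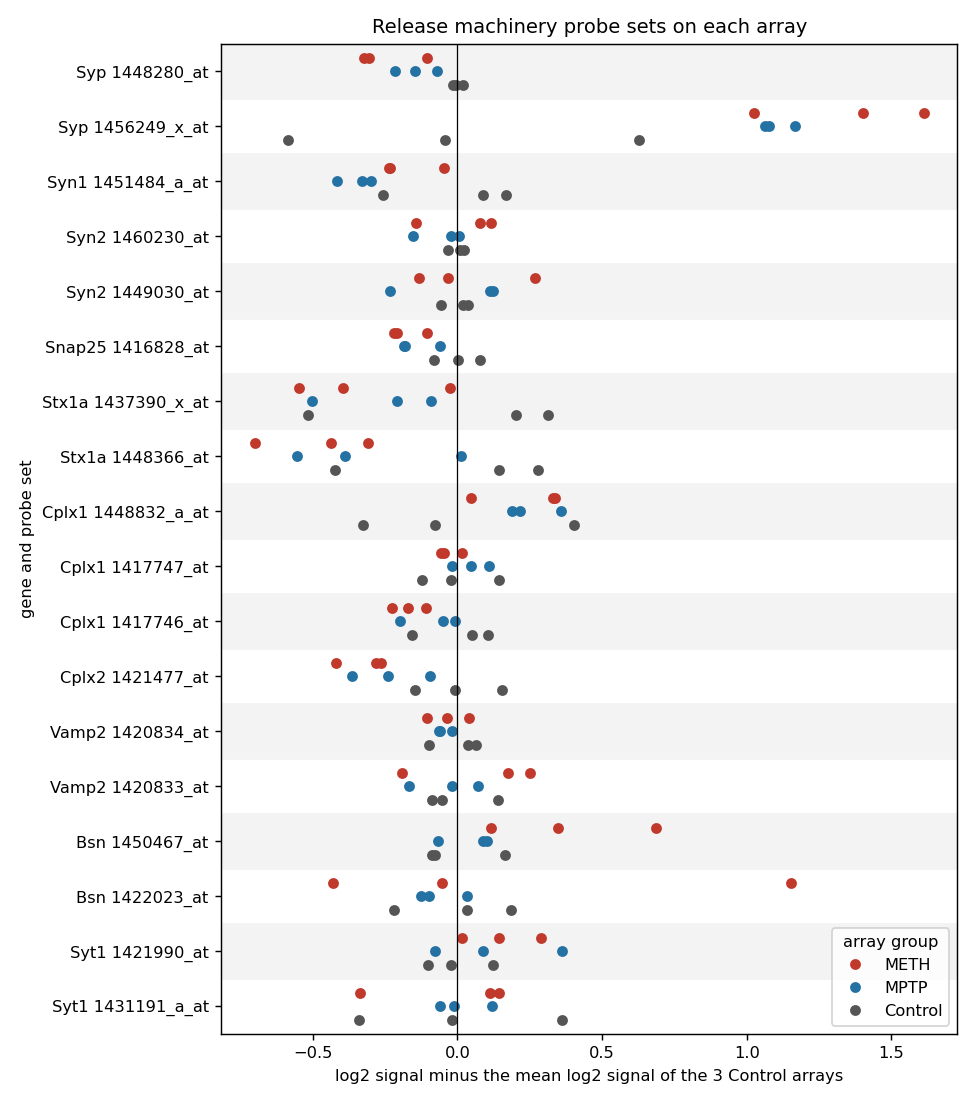
Log2 signal of each of the 18 member probe sets on each of the 9 arrays, as the difference from the mean of the 3 Control arrays (horizontal axis, log2 units). Rows are probe sets and points are arrays, with METH above MPTP above Control in each row; for Syp 1448280_at all 6 toxin points lie left of the Control points, and for the dim Syp 1456249_x_at all 6 lie to the right.

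Syp encodes synaptophysin, an abundant membrane protein of synaptic vesicles that binds VAMP2. Its bright probe set, 1448280_at, gave signals of 12510.4, 12659 and 14552 on METH arrays 1 to 3 and 14144, 13491 and 14895 on MPTP arrays 1 to 3. On Control arrays 1 to 3 it gave 15845, 15502 and 15599. All 6 toxin arrays were therefore under the lowest Control array, and the Control arrays were close to each other. The mean was 13241 ± 1139 in METH and 14177 ± 702 in MPTP, against 15649 ± 177 in Control (SD, n = 3 each). Its log2 fold change came to -0.24 ± 0.09 (SE) in METH against Control, with a limma adjusted p of 0.535. In MPTP against Control it was -0.14 ± 0.09, with a limma adjusted p of 0.893. It was negative in both comparisons under every one of the 20 alternative settings, between -0.31 and -0.20 for METH and between -0.18 and -0.11 for MPTP. Some of these settings, such as a change of filter, cannot move it. Because all 6 toxin arrays lay under the Control arrays, leaving out single arrays could not change its sign either.

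The second Syp probe set, 1456249_x_at, went the other way at a signal too dim for the fit. The ending x_at marks probe sets in which some probes can match more than 1 transcript. It gave 710.1, 1066 and 921 on METH arrays 1 to 3 and 728, 735 and 782 on MPTP arrays 1 to 3, against 539, 232 and 338 on Control arrays 1 to 3. The 6 toxin arrays were all above the Control arrays, by a difference of mean log2 values of 1.35 in METH and 1.10 in MPTP. With no filter on dim probe sets these differences had limma adjusted p-values of 0.622 and 0.960. The 2 probe sets of Syp thus gave opposite differences from the same RNA, and whether 1456249_x_at measures Syp was not tested.

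The synapsins are phosphoproteins that tether vesicles to each other and to the cytoskeleton. Syn1 had 1 probe set, 1451484_a_at. It gave 14155, 14174 and 16148 on METH arrays 1 to 3 and 13280.2, 13552 and 12498 on MPTP arrays 1 to 3. On Control arrays 1 to 3 it gave 18746, 13955 and 17718, so that Control 2 lay under every METH array and above every MPTP array. The mean was 14826 ± 1145 in METH and 13110 ± 547 in MPTP, against 16806 ± 2522 in Control (SD, n = 3 each). In MPTP against Control the log2 fold change was -0.35 ± 0.12, the smallest p of the members there, with a limma adjusted p of 0.864. In METH against Control it was -0.17 ± 0.12 (limma adjusted p = 0.711), with -0.30 without Control 2 and -0.09 without Control 1. All 3 METH arrays were above all 3 MPTP arrays, with a log2 fold change of 0.18 ± 0.12 in METH against MPTP and a limma adjusted p of 0.9998.

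The promoters of Syp and Syn1 are shown because these vesicle genes, both on chromosome X, were the members without overlap in MPTP against Control, and Cplx2 because it was the member with the smallest p after METH. The windows run from 250 bases before to 50 bases after the annotated start, from RefSeq, build GRCm38.p6, at chrX:7638330-7638629 on the plus strand for Syp, chrX:20920869-20921168 on the minus strand for Syn1 and chr13:54302306-54302605 on the plus strand for Cplx2. Capitals mark matches to 3 motifs searched on both strands.
Syp: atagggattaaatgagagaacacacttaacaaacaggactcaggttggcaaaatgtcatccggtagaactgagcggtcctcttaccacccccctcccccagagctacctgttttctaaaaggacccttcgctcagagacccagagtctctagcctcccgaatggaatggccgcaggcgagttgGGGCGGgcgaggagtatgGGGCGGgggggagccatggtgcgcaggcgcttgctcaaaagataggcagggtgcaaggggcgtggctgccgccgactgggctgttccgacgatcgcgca
Syn1: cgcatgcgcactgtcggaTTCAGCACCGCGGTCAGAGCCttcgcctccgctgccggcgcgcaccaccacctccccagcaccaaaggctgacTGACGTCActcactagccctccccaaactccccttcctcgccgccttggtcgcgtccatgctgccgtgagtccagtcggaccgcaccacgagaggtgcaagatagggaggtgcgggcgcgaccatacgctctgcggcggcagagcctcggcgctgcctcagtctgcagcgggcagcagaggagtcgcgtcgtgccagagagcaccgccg
Cplx2: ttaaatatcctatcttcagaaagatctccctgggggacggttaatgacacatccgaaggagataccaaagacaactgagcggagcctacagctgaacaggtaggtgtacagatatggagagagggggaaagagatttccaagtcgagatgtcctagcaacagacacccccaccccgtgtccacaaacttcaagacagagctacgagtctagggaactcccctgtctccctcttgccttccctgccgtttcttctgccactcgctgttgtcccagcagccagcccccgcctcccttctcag

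The motifs were the RE1 consensus, with up to 2 mismatches among its 18 fixed letters, the cyclic AMP response element TGACGTCA and the GC box GGGCGG. RE1 is bound by REST, a repressor that keeps neuronal genes silent in other cells, the cyclic AMP response element by CREB, and the GC box by Sp1. Syn1 held an RE1 match with 1 mismatch starting 232 bases before the start, and a cyclic AMP response element starting 159 bases before it, and these matches do not overlap. Syp held 2 GC boxes, starting 67 and 49 bases before the start, and the Cplx2 window held none of the 3 motifs. Among 32851 promoter windows of the same length, 0.0457% held the RE1 match, 1.79% the cyclic AMP response element and 35.7% the GC box. The table held 10 windows for 8 of the member genes. Of these, 1 window held RE1, 1 the cyclic AMP response element and 5 the GC box, in Cplx1, Stx1a, Syn2, Syp and Syt1. A match describes the letters of the window, and no binding was measured.

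Syn2, the gene of the second synapsin, had 2 probe sets whose groups overlapped in every comparison. Probe set 1460230_at gave 10105, 11782 and 12097 on METH arrays 1 to 3 and 11203, 10050.6 and 11013 on MPTP arrays 1 to 3, against 10913, 11249 and 11356 on Control arrays 1 to 3. Its log2 fold change was 0.02 ± 0.10 in METH and -0.06 ± 0.10 in MPTP against Control, with 95% intervals of -0.21 to 0.24 and -0.28 to 0.16. Probe set 1449030_at had signals of 5202 to 6874 in METH and 4856 to 6213 in MPTP, against 5483 to 5857 in Control. Its log2 fold changes were 0.03 ± 0.13 and 0.00 ± 0.13, with intervals of -0.26 to 0.33 and -0.30 to 0.30. The METH arrays thus lay on both sides of the Control range for both probe sets. The MPTP arrays did so for 1449030_at, with 1 below and 2 above. For 1460230_at 1 MPTP array was below the Control range and 0 were above. Syn1 had 3 MPTP arrays below the Control range, and the difference between the genes was not tested.

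Syt1, which encodes the calcium sensor synaptotagmin 1, also had 2 probe sets. Probe set 1421990_at gave 16466, 18015 and 19930.4 on METH arrays 1 to 3 and 15441, 20952 and 17332 on MPTP arrays 1 to 3, against 16050.3, 17771 and 15187 on Control arrays 1 to 3. The groups overlapped, with 2 METH arrays and 1 MPTP array above the highest Control array. Its log2 fold change was 0.15 ± 0.13 in METH and 0.12 ± 0.13 in MPTP against Control, with limma adjusted p-values of 0.756 and 0.942. Leaving out single arrays moved it between 0.08 and 0.22 in METH and between 0.01 and 0.23 in MPTP. Probe set 1431191_a_at spread more widely, over 7448 to 10389 in METH and 9013 to 10197 in MPTP, against 7416 to 12058 in Control, and its log2 fold changes were -0.03 ± 0.18 and 0.02 ± 0.18.

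Among the SNARE genes, Snap25 encodes the plasma membrane SNARE that contributes a pair of helices to the fusion complex. Its probe set 1416828_at gave 31674, 34015 and 31410.2 on METH arrays 1 to 3 and 35110, 32211 and 32262 on MPTP arrays 1 to 3, against 34580, 36616 and 38635 on Control arrays 1 to 3. All METH arrays were under the lowest Control array, as were 2 of the 3 MPTP arrays. The mean was 32366 ± 1434 in METH and 33194 ± 1659 in MPTP, against 36610.4 ± 2028 in Control (SD, n = 3 each). The log2 fold change came to -0.18 ± 0.09 in METH (limma adjusted p = 0.620) and -0.14 ± 0.09 in MPTP (limma adjusted p = 0.888) against Control. For METH it shrank to -0.11 with quantile normalization and -0.10 with cyclic loess. It was negative in both comparisons under every alternative setting, counting those that cannot move it. In METH against Control, where the groups did not overlap, leaving out single arrays could not change its sign.

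Stx1a, the gene of syntaxin 1A, had the lowest log2 fold change of the tested members after METH, with a wide spread. Probe set 1448366_at gave 1669, 2002 and 2191 on METH arrays 1 to 3 and 1846, 2071 and 2737 on MPTP arrays 1 to 3, against 2997, 2024 and 3289 on Control arrays 1 to 3. Control 2 lay inside both toxin groups, and the other Control arrays lay above all toxin arrays. Its log2 fold change was -0.48 ± 0.20 in METH (limma adjusted p = 0.543) and -0.31 ± 0.20 in MPTP (limma adjusted p = 0.895) against Control. The second probe set, 1437390_x_at, gave 4465, 4963 and 6411 on METH arrays 1 to 3 and 5639.7, 4609 and 6121 on MPTP arrays 1 to 3, against 8102, 4557 and 7511 on Control arrays 1 to 3. Control 2 was again far under the other Control arrays, and the log2 fold changes were -0.32 ± 0.22 in METH and -0.27 ± 0.22 in MPTP against Control. Without Control 2 the values were -0.69 and -0.58 in METH for 1448366_at and 1437390_x_at, and -0.52 and -0.53 in MPTP, with limma adjusted p-values of 0.391 to 0.782. Without Control 1 those of 1437390_x_at shrank to -0.17 in METH and -0.11 in MPTP, and without Control 3 those of 1448366_at were -0.34 in METH and -0.17 in MPTP. Stx1a was the gene with several tested probe sets that were all lower after both toxins.

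Vamp2 encodes the SNARE carried by the vesicle, and its values were close to Control. Probe set 1420834_at gave 16892, 17723 and 18694 on METH arrays 1 to 3 and 17953, 17393 and 17424 on MPTP arrays 1 to 3, against 18627, 16973 and 18990 on Control arrays 1 to 3. Its log2 fold change was -0.03 ± 0.09 in METH and -0.05 ± 0.09 in MPTP against Control, and the 95% intervals, -0.23 to 0.16 and -0.25 to 0.15, bound a difference in either direction. Probe set 1420833_at had signals of 12744 to 17304 in METH and 12964 to 15296 in MPTP, against 13683 to 16038 in Control. Its log2 fold changes were 0.08 ± 0.13 in METH and -0.04 ± 0.13 in MPTP, with wider 95% intervals of -0.22 to 0.37 and -0.33 to 0.26. All groups overlapped for both probe sets.

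**Figure D2:**
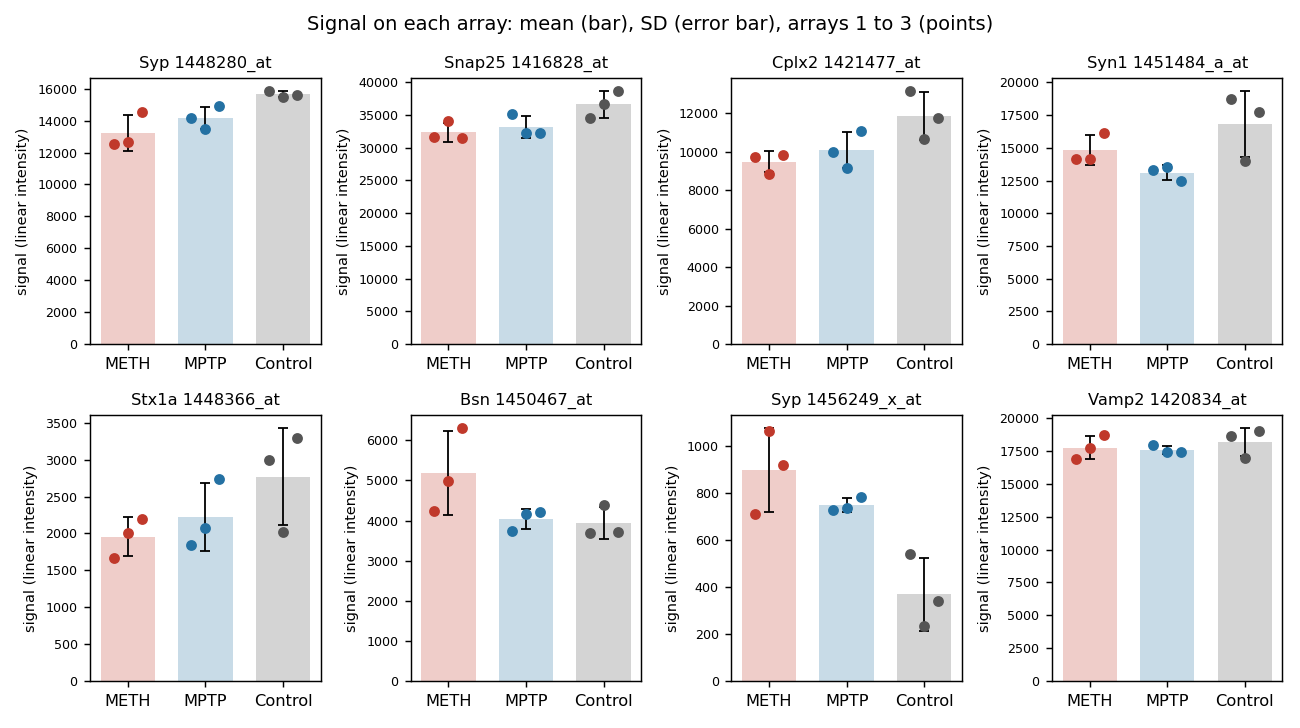
Signal (linear intensity, vertical axis from 0) of 8 member probe sets in METH, MPTP and Control striatum. Bars are means, error bars SDs and points the 3 arrays of a group; Snap25 and Cplx2 have all METH points under the Control points, while Vamp2 1420834_at overlaps throughout.

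The complexins are small soluble proteins that bind the assembled SNARE complex, and the 2 complexin genes gave different values. Cplx2, measured by probe set 1421477_at, gave 9733, 8849.6 and 9847 on METH arrays 1 to 3 and 10014, 9182 and 11069 on MPTP arrays 1 to 3, against 13160 (Control 1), 10681 (Control 2) and 11773 (Control 3). All METH arrays and 2 of the 3 MPTP arrays were under the lowest Control array. The mean was 9477 ± 546 in METH and 10088 ± 946 in MPTP, against 11871 ± 1242 in Control (SD, n = 3 each). In METH against Control the log2 fold change was -0.32 ± 0.11, the smallest p of the members there, with a limma adjusted p of 0.530. In MPTP against Control it was -0.23 ± 0.11, with a limma adjusted p of 0.874. Over the 20 alternative settings, some of which cannot move it, it lay between -0.39 and -0.24 for METH and between -0.31 and -0.16 for MPTP.

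Cplx1 had 3 probe sets that did not share a direction. The brightest, 1448832_a_at, gave 40959.6, 41169 and 33685 on METH arrays 1 to 3 and 41808, 37912 and 37159 on MPTP arrays 1 to 3, against 30907, 26021 and 43115 on Control arrays 1 to 3. Control 3 was above every toxin array and the other Control arrays were below them, and the log2 fold changes were 0.24 ± 0.17 in METH and 0.25 ± 0.17 in MPTP against Control. Without Control 3 they were 0.44 and 0.46, with all toxin arrays above the other Control arrays, and without Control 2 they were 0.07 and 0.09. Probe set 1417747_at had signals of 16664 to 17486 in METH and 17092 to 18684 in MPTP, against 15921 to 19132 in Control, and log2 fold changes of -0.03 ± 0.10 and 0.05 ± 0.10. Probe set 1417746_at had signals of 12244 to 13259.5 in METH and 12470.2 to 14224 in MPTP, against 12841 to 15399 in Control, and log2 fold changes of -0.17 ± 0.10 and -0.09 ± 0.10. Limma adjusted p-values of these 3 probe sets against Control were 0.674 to 0.973. The difference between Cplx1 and Cplx2 was not tested.

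Bsn, the gene of the active zone scaffold protein bassoon, had the highest log2 fold change of the tested members after METH, a place that depended on single arrays. Probe set 1450467_at gave 4248, 4992 and 6312 on METH arrays 1 to 3 and 3742, 4165 and 4202 on MPTP arrays 1 to 3, against 3687, 4394 and 3714 on Control arrays 1 to 3. METH 1 lay under Control 2, so the groups overlapped, and METH 3 was the highest array. The log2 fold change was 0.38 ± 0.15 in METH (limma adjusted p = 0.531) and 0.04 ± 0.15 in MPTP (limma adjusted p = 0.985) against Control. Without METH 3 the METH value was 0.23, under the 0.36 of Bsn 1422023_at and the 0.33 of Cplx1 1448832_a_at in that fit. It was 0.52 without METH 1, under the 0.55 of Bsn 1422023_at, and 0.35 without Control 3, under the 0.44 of Cplx1 1448832_a_at. In METH against MPTP all METH arrays were above all MPTP arrays, though METH 1 exceeded the highest MPTP array by little, and the log2 fold change was 0.34 ± 0.15 with a limma adjusted p of 0.9998, or 0.19 without METH 3. The other Bsn probe set, 1422023_at, had a mean log2 signal of 9.68, just above the filter. It gave 1754 on METH 2 against 586 and 760.1 on METH 1 and 3, and it gave 722 to 807 on MPTP arrays, against 678 to 897 on Control arrays. In METH against Control the log2 fold change was 0.22 ± 0.32, and -0.24 without METH 2.

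**Figure D3:**
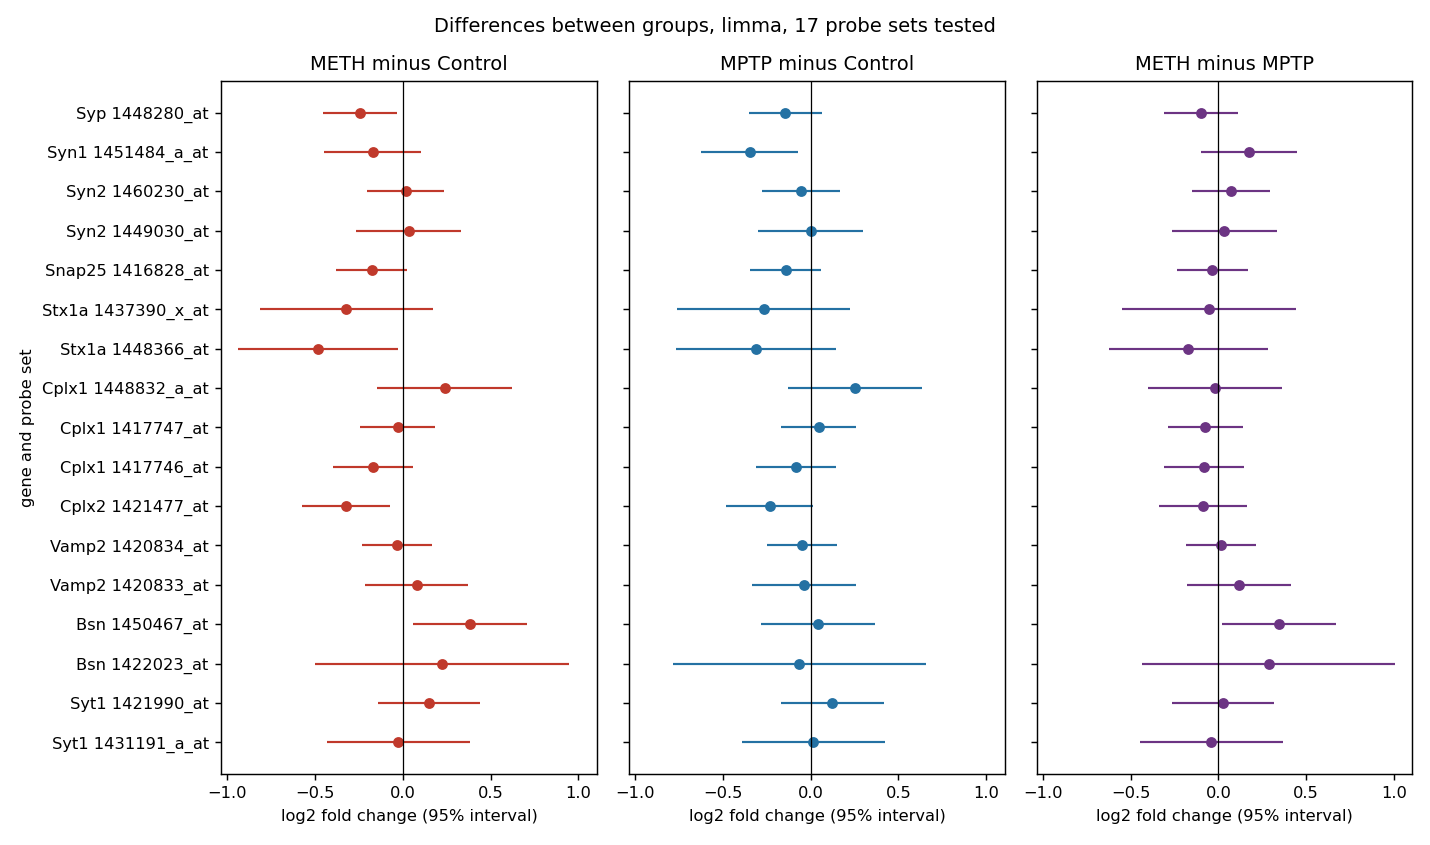
Log2 fold change (points) with its 95% interval (lines) for the 17 tested probe sets in METH minus Control, MPTP minus Control and METH minus MPTP, from the limma fit of all 9 arrays. The intervals are widest for Bsn 1422023_at and the Stx1a probe sets, and intervals that leave out 0 belong to p-values that were not adjusted.

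No member passed the test between the toxins, and the 95% intervals of that difference reached 1.01 for Bsn 1422023_at and -0.63 for Stx1a 1448366_at. In METH against MPTP 9 of the 17 tested probe sets were lower and 8 higher, with a median log2 fold change of -0.02, where the median over all probe sets tested was -0.00 and 50.3% were lower. The 2 probe sets without overlap were Syn1 1451484_a_at and Bsn 1450467_at, both higher in METH, where 3.71% of all probe sets were higher without overlap, 3.55% lower and 7.26% either. Without METH 1 there were 4 higher and 1 lower, where 9.38% and 8.54% of all probe sets were, and without MPTP 3 there were 2 higher and 2 lower (8.06% and 8.61%). The METH and MPTP comparisons share their Control arrays, so the likeness of their values is no independent repeat.

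The median difference of the members from Control depended on the scaling after METH. In METH against Control 10 of 17 probe sets were lower and 7 higher, with a median log2 fold change of -0.03. Over all probe sets tested the median was 0.01 and 47.1% were lower. The median of the members turned to 0.02, with 7 of 17 lower, under both quantile and cyclic loess normalization, and was 0.00 without METH 1. With arrays centred on their medians it was -0.09, where all probe sets tested had a median of -0.05. In MPTP against Control 11 of 17 were lower, with a median of -0.06 against 0.01 over all probe sets tested, of which 47.7% were lower. That median stayed below 0 under each of these scalings, at -0.10 to -0.03, the lowest with arrays centred on their medians, where all probe sets tested had a median of -0.03.

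Signal level moved with the direction of the differences. Among the brightest 10% of all probe sets, 68.4% were lower in METH than in Control and 62.3% were lower in MPTP than in Control. Of the 17 tested members 12 belonged to that range, and 8 of the 12 were lower in each comparison. Their medians were -0.03 and -0.05, beside -0.05 and -0.03 for all probe sets of the range. The share of lower members among bright probe sets was thus near that of bright probe sets in general.

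Probe sets of the same gene shared a direction in 3 of the 6 genes with several tested probe sets in METH against Control (Bsn, Stx1a and Syn2) and in 3 of 6 in MPTP against Control (Stx1a, Syt1 and Vamp2). In METH against MPTP they did so in 5 of 6. Arrays of a group also differed among themselves. On METH 1, 15 of the 17 tested members were below their 9-array mean, against 9 on METH 2 and 7 on METH 3. On MPTP 1, 2 and 3 there were 9, 13 and 10, and on Control 1, 2 and 3 there were 8, 8 and 5. The median deviation of the members from that mean was -0.13 on METH 1, -0.08 on MPTP 2 and 0.12 on Control 3. On the other arrays it was -0.01 to 0.07. Over all probe sets tested the median deviation was -0.004 to 0.015 on the 9 arrays.

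Other genes of the presynapse, from lists written for this comparison, gave 0 probe sets past the test in limma for either toxin. For these lists, the shares of all probe sets tested were 47.1% lower in METH than in Control and 47.7% lower in MPTP. At an unadjusted limma p under 0.05 they were 3% lower and 5.76% higher in METH, and 1.82% and 3.71% in MPTP. Of 44 tested probe sets of SNARE assembly and priming genes, 26 were lower in METH than in Control (median -0.04) and 21 in MPTP than in Control (median 0.01). At an unadjusted p under 0.05 there were 2 lower and 2 higher after METH, and 1 lower and 2 higher after MPTP. Syt7, a synaptotagmin of slow calcium responses, had a log2 fold change of 0.52 ± 0.16 in METH, with 1917, 1823 and 1317 on METH arrays against 1121, 1307 and 1060.2 on Control arrays. Vamp3, a vesicle SNARE of many cell types, had 0.42 ± 0.13 in METH and 0.50 ± 0.13 in MPTP for 1433693_x_at, while its 3 other tested probe sets had -0.05 to 0.14 and -0.01 to 0.25. Unc13a, which encodes the priming factor Munc13-1, had -0.38 ± 0.13 in MPTP, with 2444, 2832 and 2029.8 on MPTP arrays against 3041, 3194 and 3157 on Control arrays. Limma adjusted p-values of these 3 probe sets were 0.490 to 0.874.

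Of 37 tested probe sets of other vesicle protein genes, 17 were lower in METH than in Control (median 0.03) and 20 in MPTP than in Control (median -0.02). At an unadjusted p under 0.05 there were 1 lower and 4 higher after METH, and 0 lower and 3 higher after MPTP. Sypl, a relative of synaptophysin found in many tissues, had probe sets that disagreed in METH: 1422881_s_at gave -0.66 ± 0.22 and 1422879_at gave 0.26 ± 0.09. In MPTP the Sypl probe set 1422882_at gave 0.40 ± 0.10, with -0.43 to 0.22 for the 3 others. Syngr1, the synaptogyrin 1 gene, gave 0.37 ± 0.13 in MPTP for 1419289_a_at and 0.10 for its other probe set. Limma adjusted p-values of the values given with an SE were 0.504 to 0.864. Over the scalings the median of this list ran from -0.04 to 0.04 in METH and from -0.06 to 0.00 in MPTP, with the lowest value of each when arrays were centred on their medians. That centring moved the median of all probe sets tested to -0.05 in METH and -0.03 in MPTP.

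Of 25 tested probe sets of active zone and presynaptic calcium channel genes, 12 were lower in METH than in Control (median 0.00) and 13 in MPTP than in Control (median -0.01). At an unadjusted p under 0.05, 0 were lower and 1 higher after METH and 0 in either direction after MPTP. Probe sets of these genes differed among themselves. Ppfia4, a liprin-alpha scaffold gene, had 0.28 ± 0.12 in METH for 1428578_s_at, with -0.43 and 0.12 for its 2 others. Ptprs, a receptor phosphatase gene, had 0.45 ± 0.25 in METH for 1427688_a_at, with 0.04 and 0.51 for its 2 others. Cask, a scaffold kinase gene, had -0.40 ± 0.23 in MPTP for 1422518_at, with 0.05 and 0.16 for its 2 others. Pclo, whose product piccolo is the closest relative of bassoon, had -0.14 ± 0.10 in MPTP for 1419392_at (and -0.16 for its other probe set), with 10741, 10718 and 9628 on MPTP arrays against 10369, 11459 and 12386 on Control arrays. Limma adjusted p-values of the first probe set of each of these 4 genes were 0.560 to 0.909.

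Of 44 tested probe sets of vesicle endocytosis genes, 27 were lower in METH than in Control (median -0.04) and 26 in MPTP than in Control (median -0.05). At an unadjusted p under 0.05, 3 were lower and 2 higher after METH, and 0 were lower and 1 higher after MPTP. Sh3gl1, the endophilin A2 gene, had -0.42 ± 0.15 in METH. Itsn1, the intersectin 1 gene, had 0.51 ± 0.20 in METH and 0.47 ± 0.20 in MPTP for 1425899_a_at, while its 3 other probe sets had 0.06 to 0.16 and 0.15 to 0.22. Stx6, a syntaxin of the Golgi and endosomes, had -0.15 ± 0.09 in MPTP for 1460004_x_at, with -0.06 to 0.11 for its 3 others. Limma adjusted p-values of the first probe set of each of these 3 genes were 0.530 to 0.883.

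Most probe sets of general neuronal genes had lower values after the toxins. Of 38 tested probe sets, 28 were lower in METH than in Control (median -0.12) and 26 in MPTP than in Control (median -0.05), and 0 passed the test in limma for either toxin. These were 73.7% and 68.4%, where 47.1% and 47.7% of all probe sets tested were lower, and 68.4% and 62.3% of the brightest. At an unadjusted p under 0.05, 2 were lower and 1 higher after METH and 2 were lower and 0 higher after MPTP. The medians stayed below 0 under quantile, cyclic loess and median scaling. The summed signal of these probe sets was 332267 to 377155 on METH arrays and 359901 to 365912 on MPTP arrays, against 367137 to 391389 on Control arrays.

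Tubb3, the neuronal beta tubulin gene, gave 3382, 3006 and 3390 (METH 1 to 3) and 3583, 3177 and 3307 (MPTP 1 to 3), against 4049, 4339 and 4090 (Control 1 to 3). All 6 toxin arrays were under the lowest Control array, as for Syp. Nrgn, the neurogranin gene of forebrain projection neurons, which was also the 1 cortical marker tested, gave 22785 to 27408 in METH and 22894 to 26724 in MPTP, against 29259.6 to 34832 in Control. Their limma adjusted p-values were 0.450 to 0.843. Elavl3, an RNA-binding protein gene of neurons, had a log2 fold change of 0.36 ± 0.10 in METH for 1455484_at, with -0.10 and 0.05 for its 2 other probe sets. The part of neuronal content or of cortical tissue in the values of the members was not tested.

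Markers of other cell types were summed in the same way. Summed signals of 13 tested microglial probe sets were 66476 to 70710.5 in METH and 63198 to 69283 in MPTP, against 56011 to 63545 in Control. Those of 21 astrocyte probe sets were 173192 to 189757 in METH and 181155 to 190369.7 in MPTP, against 167827 to 172180 in Control. The astrocyte sums include the 2 Gfap probe sets, which were the 2 of that list past the test. Sums without Gfap were not taken, so these sums do not show a difference in the other astrocyte probe sets. Summed signals of 10 spiny neuron probe sets overlapped between all groups, with 194800.2 to 215904 in METH and 179835 to 209499 in MPTP, against 197802 to 230799.7 in Control. Of the oligodendrocyte probe sets, 21 were tested, with sums of 470008 to 493651 in METH and 454074 to 516309 in MPTP, against 415826 to 487934 in Control. Sums of 7 endothelial probe sets were 15517 to 16461 in METH and 15938 to 16758 in MPTP, against 16243 to 16575 in Control. Those of 3 probe sets listed as dopamine terminal markers, of Th, Ddc and Aldh1a1, were 6595 to 7400.4 in METH and 6453 to 7217 in MPTP, against 5530 to 7010.3 in Control. Because dopamine neurons have their cell bodies in the midbrain, these striatal sums do not measure their terminals. For choroid plexus and ependyma, where 5 probe sets were tested, the sums ran from 18312 to 123355 in METH and from 8694 to 71638 in MPTP, against 26455 to 149175 in Control. The 1 blood probe set tested, of the haemoglobin gene Hbb-b2, gave 879.8 to 1068 in METH and 795 to 1173 in MPTP, against 423 to 776 in Control. The part of these cell types in the values of the members was not tested.

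**Figure D4:**
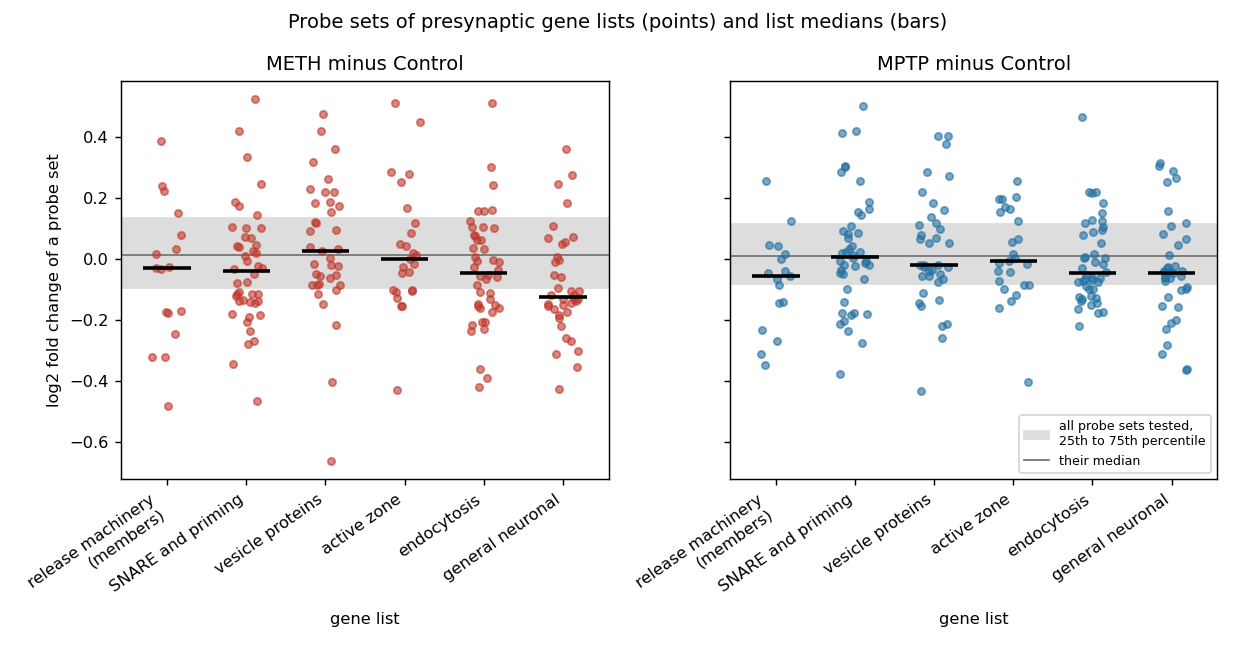
Log2 fold change of each tested probe set (points) in the member genes and 5 other lists, for METH minus Control and MPTP minus Control, with the list median as a bar. The grey band spans the lower to the upper quartile of all 13576 probe sets tested and the thin line is their median; most list points lie in or near the band, and the general neuronal median in METH, -0.12, lies below it.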

How the data were processed

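Signals were analysed as deposited. The intensity values are linear and had been scaled by the authors to a common target, since every array had the same trimmed mean, 2501, with 2% left out at each end. RMA is the tool named per the submitters' processing notes; the values lack its usual log form, so how probes were summarised is unsettled. The probe annotation that matched belongs to a smaller array design than the one the series text names. Of 22690 probe sets, 64 array controls were left out. Symbols of all 10 genes matched an NCBI RefSeq table (GRCm38.p6) by gene ID. log2 of these values was fitted by limma (version 3.58.1, R 4.3.3) with a mean for each group and eBayes, on 6 residual and 3.94 prior degrees of freedom, two-sided, without normalization, offset or batch term. An exact permutation test of 3 arrays against 3 cannot go below p = 0.1 and was not used. The fit was tested on simulated data. Every member probe set was named; of other lists, the 2 probe sets with the smallest p in each comparison with Control. Members and lists were chosen with earlier results of these data known.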

Additional observations from a re-analysis of the deposited data

How the results depend on the processing

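The 20 alternatives changed the normalization, the filter, an offset of 50, the feature, the arrays fitted, array weights and the block. Under each of them 0 members passed the test in all 3 comparisons, and the lowest adjusted p of a member was 0.314. Of 975 recomputed member values 974 moved by less than the spread within groups. Some of them could not move, since a change of filter, the replicate block or a fit of only the compared groups leaves a fold change as it is. Leaving out a single array cannot shift a difference by more than the spread within groups. Those fits were therefore bound to count as moving less, and the count says nothing about them. The value that moved by more was Snap25 in METH against Control with cyclic loess (-0.10), and 57 values, none past the test, changed sign. In METH against Control the count of members without overlap was 2 under both quantile and cyclic loess normalization, where it was 3 as deposited. The count was 1 with quantile normalization in MPTP against Control, and 1 with arrays centred on their medians and with genes averaged over probe sets in METH against MPTP. Leaving out single arrays of the compared groups gave 3 to 9 such members in METH against Control and 3 to 8 in MPTP against Control. In METH against MPTP it gave 2 to 5, all in both directions together. Of all probe sets tested, 22.2% to 26.3%, 18.9% to 22.5% and 15.7% to 17.9% did not overlap in these comparisons. Medians of the members then ran from -0.10 to 0.00, -0.09 to -0.04 and -0.04 to 0.06. Over all probe sets tested, 2 passed in each comparison with Control, both of Gfap; over the alternatives the counts were 0 to 2, with 0 in both under median centring and the replicate block, 1 and 0 without a filter and when only the compared groups were fitted, and 0 to 1 when single arrays were left out. The replicate numbers of the titles did not pair the arrays: same-numbered arrays deviated together with correlations of -0.13 to 0.05, and 0 of the 9 arrays correlated best with their own number. With the replicate block 0 members passed and the medians were -0.03, -0.06 and -0.02. No detection calls were used, so signal over background limits the dim Syp and Bsn probe sets.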
